A study of Mus musculus with 56 samples.

Results

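The complement and coagulation genes of the mouse liver were followed in RNA from healthy liver and from liver tumours. The set was a list of 49 genes, chosen by name with earlier results of these data known, and left out the serpins and C1q. All 49 were found among the 24034 genes kept from the table, 47 under the listed symbol and 2 under another one, C1S as C1s1 and C5 as Hc. The values came from 26 bulk RNA-seq libraries out of 56 samples of the series, and the other 30 samples were not used here. All animals were C57BL/6 mice. The tumours are titled MYC, nicd (an activated Notch fragment) and either luc (luciferase) or lucOS (luciferase joined to model T cell antigens), and all samples are labelled with hydrodynamic tail vein injection, a way to carry plasmid DNA into hepatocytes. There were 6 luc and 6 lucOS tumours whose titles give no sex, 4 luc and 4 lucOS tumours titled as males, and 6 healthy livers, for which the labels name no construct. The labels give no ages, and each title carries an animal number of its own. Bulk tumour RNA can hold RNA of tumour cells and of the liver and other cells around them.

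Complement is a cascade of plasma proteins that marks targets for uptake, recruits leukocytes and punches pores into membranes. It starts from antibody (classical pathway), from sugars (lectin pathway) or from the slow turnover of C3 (alternative pathway). Coagulation is a second plasma cascade, in which tissue factor and factor VII start a chain of proteases that ends with thrombin and fibrin, and plasminogen dissolves the clot again. Hepatocytes make most of these plasma proteins, while cell-surface starters and brakes such as tissue factor, thrombomodulin and the urokinase receptor are made mainly outside hepatocytes.

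The values are TPM, transcripts scaled for gene length and to the same library total, so levels of genes can be set side by side. TPM keeps no read depth, so depth is unknown. Libraries listed 16897 to 19145 genes above 0 TPM. In tumours all 14 tested hepatocyte markers fell, with a summed level of 126033 to 180558 TPM in healthy livers and 368 to 7438 in luc, 501 to 5744 in lucOS, 669 to 11113 in luc male and 1369 to 18300.3 in lucOS male tumours. The tumours labelled as liver thus held hepatocyte RNA at a low level. Of 8 bile duct cell markers 7 rose, and of 10 fibroblast and stellate cell markers 6 rose and 2 fell. Over all genes tested, 71.8% rose and 16.9% fell. The animal numbers of healthy livers and of tumours belong to different series, and the male tumours have numbers of 1 series of their own, so neither tumour nor male label can be told apart from animal series. The tumour mean includes male tumours, and the healthy livers carry no sex label.

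Most liver-made complement and coagulation genes fell steeply in the tumours, and 7 genes rose, among them both plasminogen activators and the urokinase receptor. The 49 genes together held 25896 to 31048 TPM in healthy livers. They held 685 to 3761 TPM in luc, 453 to 2805 in lucOS, 975 to 8798 in luc male and 922 to 8363 in lucOS male tumours, so the highest tumour stayed far below the lowest healthy liver. As a share of all TPM this was 2.90% ± 0.177 in healthy livers (SD, n = 6), 0.161% ± 0.117 with luc and 0.107% ± 0.0891 with lucOS (SD, n = 6 per group). Shares were 0.332% ± 0.368 in luc males and 0.449% ± 0.313 in lucOS males (SD, n = 4 each). In bulk RNA, fewer hepatocytes and less RNA per hepatocyte cannot be told apart.

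Of the 48 genes tested against healthy liver, 39 fell and 7 rose. A gene was called at a limma adjusted p under 0.05, on the log2(TPM + 1) scale, with at least 1 TPM in at least 4 libraries, and the same 48 genes passed that filter among the 20 tumours alone. Over all 15767 genes tested, 16.9% were lower and 71.8% were higher, and the median of all genes was a log2 fold change of 1.03. The median of the 48 genes was -4.40. Changes that start or end near or below 1 TPM are understated on the log2(TPM + 1) scale, as in the falls of Cd55, F8 and C6. Sizes of change are thus not directly comparable between genes at low and high levels. The 7 that rose were F3, F13a1, Plat, Plau, Plaur, Tfpi and Vwf. C1s1 and Thbd did not pass, and Cfd was not tested. In 34 of the 48 genes all 20 tumours lay below all 6 healthy livers, which held for 9.83% of all genes tested, and in 4 (F13a1, Plat, Plau and Plaur) all tumours lay above, which held for 54.8%. The values of all genes in all libraries are shown by role in the heat map, and the differences with their intervals in the dot plot.

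**Figure D1:**
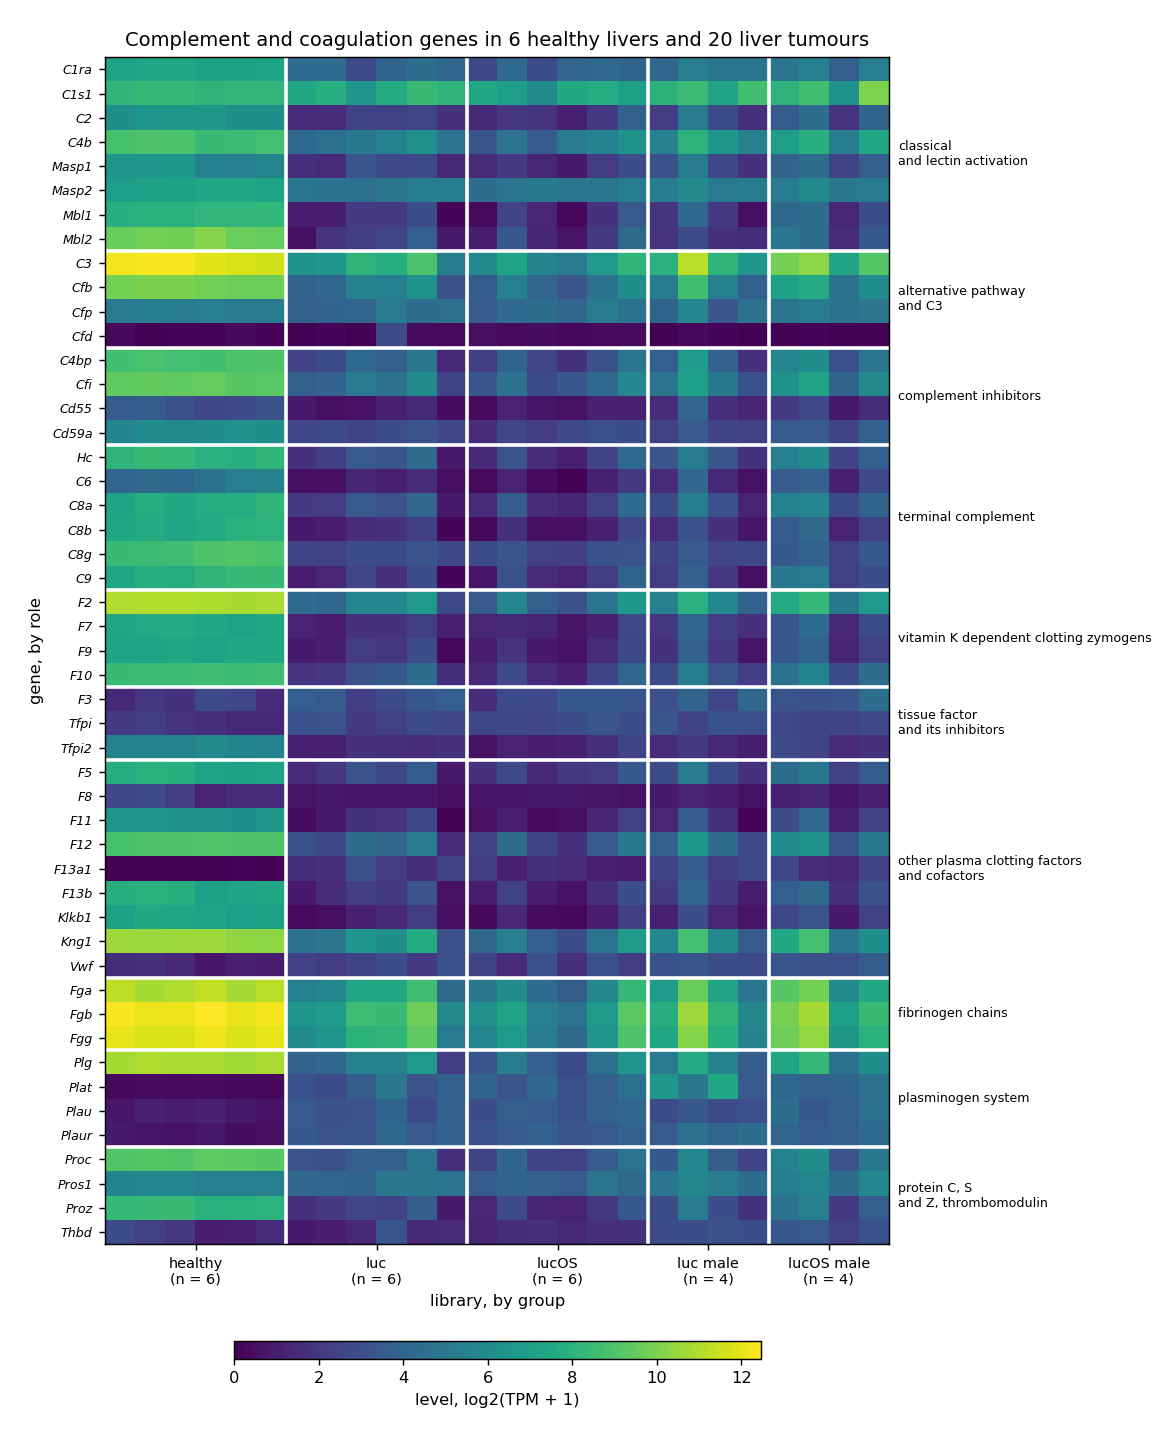
Levels of the 49 genes (rows, by role) in the 26 libraries (columns, by group), as log2(TPM + 1) from dark (0) to yellow (above 12). Fibrinogen chains and C3 are brightest in the 6 healthy livers, most rows darken in the tumours, and F13a1, Plat, Plau and Plaur are brighter in tumours than in healthy liver.

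**Figure D2:**
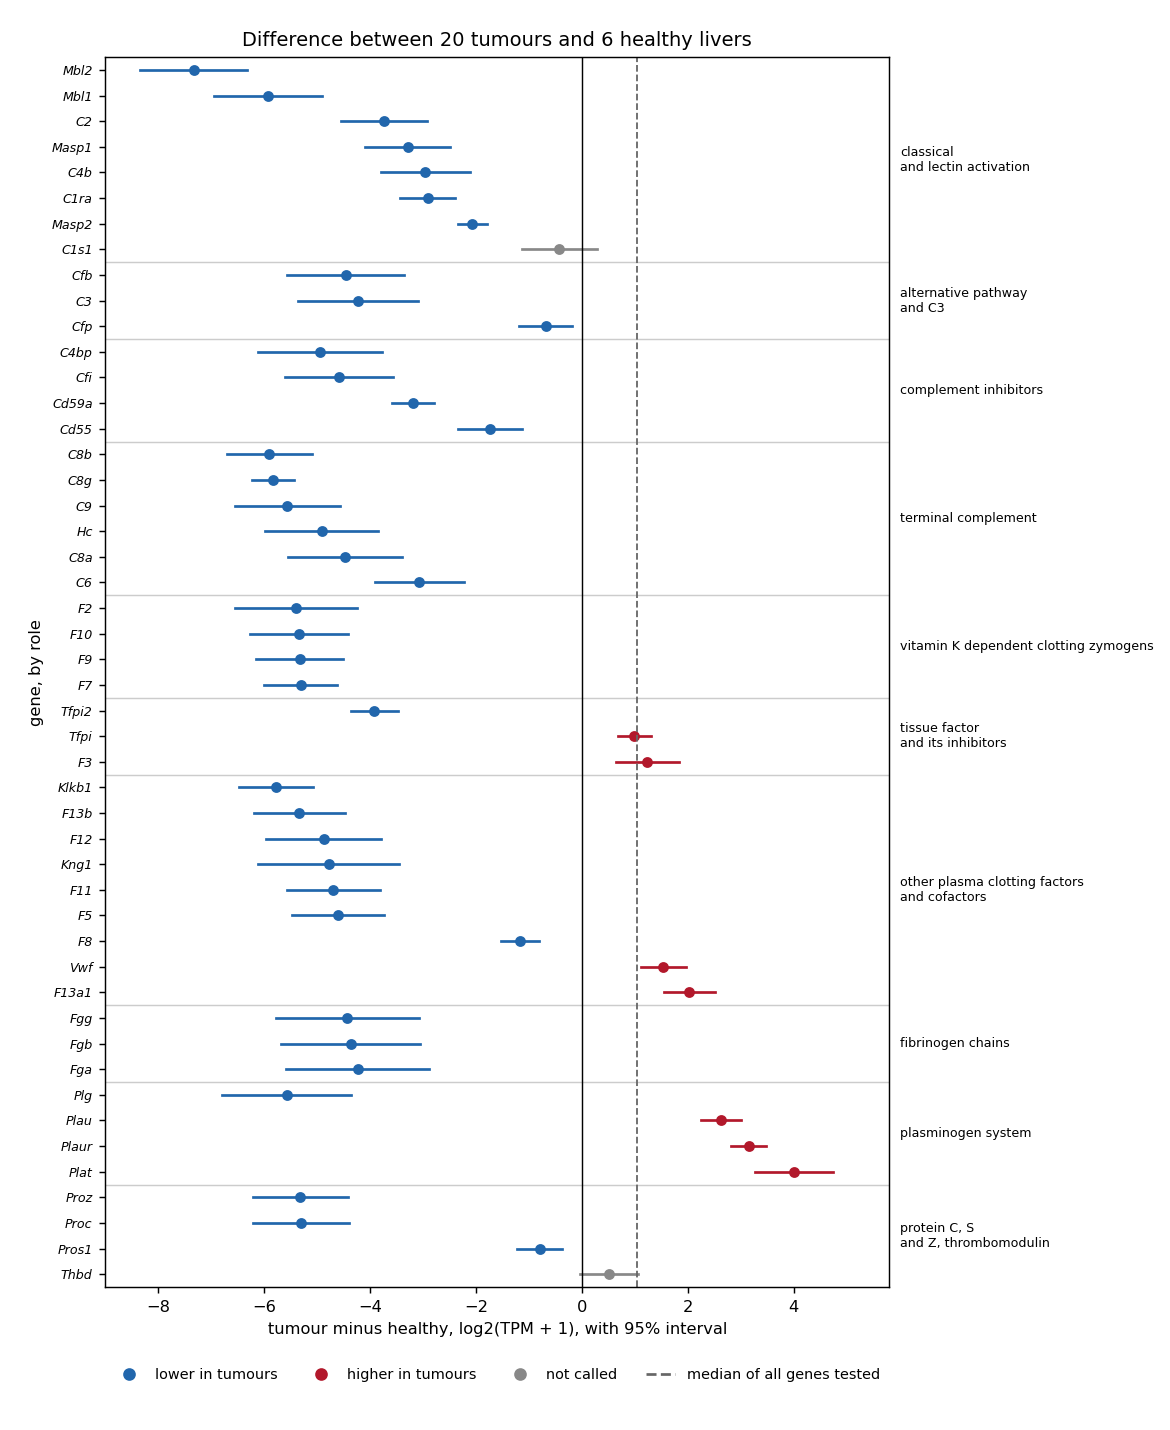
Difference between tumours (mean of the 4 group means) and healthy liver for the 48 genes tested, in log2(TPM + 1) units, with 95% intervals from limma. Points left of the solid line are lower in tumours, the dashed line marks the median of all genes at 1.03, and Tfpi and F3 lie on or close to it.

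The direction of a few genes depended on how libraries were scaled. Of all called genes, 81.0% were higher with the deposited scale, 53.2% with quantile normalization and 51.0% with median ratio scaling. Relative to the median gene, Plat was higher by 2.96, Plaur by 2.11, Plau by 1.58 and F13a1 by 0.99, and these 4 passed under both scalings. Vwf was higher by 0.50 relative to the median gene and lost its call with quantile normalization. F3 (0.20) lost its call under both scalings, at -0.06 and 0.18. Tfpi was at -0.05 relative to the median gene and turned to -0.35 and -0.03.

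The recognition and protease genes of the classical and lectin pathways fell in 7 of 8 cases. The mannose-binding lectins, which bind sugars on microbes and damaged cells, fell most of all 48 genes. Mbl2 lay from 720.3 to 1183 TPM with a median of 825 in healthy livers, from 0.421 to 12.2 TPM with a median of 3.21 in luc and from 0.581 to 19.0 TPM with a median of 2.35 in lucOS tumours. Values in males were 2.61, 6.49, 2.21 and 2.06 TPM for luc and 28.6, 20.8, 1.93 and 9.51 for lucOS. No tumour came near a healthy liver, and the log2 fold change was -7.33 ± 0.49 (SE, limma adjusted p = 4.42e-13). Mbl1 fell by 5.93 on the log2 scale.

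The lectin proteases differed in how far they fell. Masp1 was 68.5 ± 27.9 TPM in healthy livers (SD, n = 6), 4.30 ± 2.88 in luc and 2.98 ± 2.07 in lucOS (SD, n = 6 per tumour group). In males it stood at 7.72, 35.3, 5.45 and 2.47 TPM with luc and 14.8, 19.9, 4.22 and 12.8 with lucOS. Masp2, which cleaves C4 and C2, kept more of its level, at 121 to 163 TPM in healthy livers and 20.8 to 61.0 over all tumours. The log2 fold changes were -3.29 ± 0.39 for Masp1 and -2.07 ± 0.14 for Masp2 (SE).

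C1r and C1s, the protease pair of the C1 complex, parted. C1ra lay from 138 to 167 TPM with a median of 147 in healthy livers, from 6.43 to 21.6 TPM with a median of 17.9 in luc and from 5.48 to 17.9 TPM with a median of 15.6 in lucOS tumours. Male tumours held 16.1, 39.2, 27.6 and 27.2 TPM under luc and 26.3, 41.2, 12.7 and 38.8 under lucOS, so every tumour lay below every healthy liver (log2 fold change -2.91 ± 0.25 SE, limma adjusted p = 8.71e-11). C1s1 lay from 273 to 327 TPM with a median of 291 in healthy livers, from 93.2 to 339.6 TPM with a median of 216 in luc and from 59.1 to 208 TPM with a median of 152 in lucOS tumours. In males it stood at 253, 367, 142 and 409 TPM with luc and 268, 409, 83.1 and 1065 with lucOS, and the groups overlapped. Its difference was -0.43 ± 0.34 (SE, 95% interval -1.14 to 0.28, limma adjusted p = 0.236). It passed as lower with the male tumours left out (-0.83, limma adjusted p = 0.00427) and with median ratio scaling (-1.72). C2, the shared protease of both pathways, fell by 3.73 and C4b, its scaffold, by 2.96. Mouse C1ra, C1s1 and C4b each have a near-identical copy in the genome, and how the authors' counting split reads between copies is not stated, so their levels are uncertain.

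C3, the hub on which all complement pathways meet, was the second most abundant of the 49 genes in healthy liver. It lay from 3123 to 5242 TPM with a median of 4382 in healthy livers, from 37.7 to 472 TPM with a median of 153 in luc and from 34.1 to 278 TPM with a median of 80.0 in lucOS tumours. Values in males were 246, 2282, 279 and 92.6 TPM for luc and 908, 1255, 153 and 564 for lucOS. Replicate 2 of the luc males stood apart from its group and came closest to healthy liver, and no tumour reached a healthy value (log2 fold change -4.24 ± 0.55 SE, limma adjusted p = 1.05e-07). Cfb, the protease of the alternative convertase, was 916 ± 91.6 TPM in healthy livers (SD, n = 6), 34.3 ± 27.1 in luc and 28.2 ± 23.2 in lucOS (SD, n = 6 per tumour group). The male tumours had 38.5, 414, 42.9 and 13.8 TPM with luc and 140.0, 203, 25.3 and 66.0 with lucOS. It fell by 4.46 on the log2 scale. Cfp, properdin, which stabilizes that convertase and is made mainly by leukocytes, fell by 0.68 (limma adjusted p = 0.0116) with overlapping groups, and lost its call when only 1 series of healthy livers was used. Cfd, the protease adipsin made mainly by fat cells, was at 0.0437 to 0.213 TPM in healthy livers and at most 6.55 TPM in tumours. That highest value came from luc replicate 4, the tumour with the highest sum of fat cell markers (3.78 TPM, where healthy livers had 3.39 to 5.10), and every other tumour had at most 0.389 TPM of Cfd. Only 1 of the 5 fat cell markers reached the filter, and the part of fat cells in the value of luc replicate 4 was not tested.

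All 6 terminal complement genes, whose products assemble the membrane pore, fell. The log2 fold changes ran from -3.07 for C6 to -5.90 for C8b, with C9 at -5.56 and Hc (C5) at -4.91. C8b lay from 160.2 to 265 TPM with a median of 196 in healthy livers, from 0.161 to 3.88 TPM with a median of 1.48 in luc and from 0.215 to 5.38 TPM with a median of 0.807 in lucOS tumours. The luc males had 1.77, 7.90, 2.38 and 0.640 TPM and the lucOS males 10.4, 18.5, 1.31 and 4.57, far below healthy liver in every tumour. C6 was 26.9 ± 12.5 TPM in healthy livers (SD, n = 6), 0.967 ± 0.671 in luc and 1.04 ± 1.21 in lucOS (SD, n = 6 per tumour group). In males it was 1.79, 16.5, 1.69 and 0.487 TPM with luc and 10.99, 12.9, 1.16 and 5.66 with lucOS. C6 was the 1 terminal gene whose groups overlapped, because luc male replicate 2 exceeded the lowest healthy liver.

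Complement inhibitors fell in 4 of 4 cases. C4bp, a soluble brake on C4b, fell by 4.95 and Cfi, the protease that cuts C3b and C4b, by 4.59. Cd59a and Cd55, anchored in the membrane, where Cd59a blocks the pore and Cd55 speeds the decay of convertases, fell by 3.19 and 1.74. Each has a related copy in the mouse genome, and how shared reads were counted is not stated, so their levels are uncertain. Cd59b, the copy of Cd59a, was listed separately, at 4.80 to 6.91 TPM in healthy livers. Cd55 lay from 5.53 to 11.9 TPM with a median of 7.62 in healthy livers, from 0.334 to 1.75 TPM with a median of 0.665 in luc and from 0.285 to 1.31 TPM with a median of 0.920 in lucOS tumours. Values in males were 2.03, 16.3, 2.32 and 1.44 TPM for luc and 3.39, 5.64, 0.865 and 2.12 for lucOS. Luc male replicate 2 lay above every healthy liver, lucOS male replicate 2 just above the lowest healthy one, and the other tumours below all of them. Cd59a was 65.8 ± 10.2 TPM in healthy livers (SD, n = 6), 5.96 ± 1.198 in luc and 5.09 ± 2.01 in lucOS (SD, n = 6 per tumour group). Values in male tumours were 4.44, 10.5, 4.92 and 4.39 TPM with luc and 10.0, 10.9, 4.82 and 13.8 with lucOS.

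The vitamin K dependent clotting zymogens, proteases that need carboxylated residues to bind membranes, fell by nearly the same amount on the log2(TPM + 1) scale. In TPM they were less alike. The mean of the 4 tumour group means was 4.11% of the healthy mean for F2, 3.50% for F10, 2.73% for F9 and 2.82% for F7. The log2 fold changes were -5.39 ± 0.56 for F2, -5.35 ± 0.45 for F10, -5.33 ± 0.40 for F9 and -5.31 ± 0.34 for F7 (SE, limma), and no tumour overlapped with a healthy liver in any of them. F2, prothrombin, lay from 1806 to 2100.4 TPM with a median of 1974 in healthy livers, from 5.75 to 106 TPM with a median of 34.9 in luc and from 7.49 to 98.4 TPM with a median of 19.8 in lucOS tumours. In males it stood at 42.3, 237, 56.0 and 14.8 TPM with luc and 193, 309.5, 30.6 and 102 with lucOS. F10 was 372 ± 20.8 TPM in healthy livers (SD, n = 6), 7.86 ± 7.47 in luc and 5.14 ± 5.60 in lucOS (SD, n = 6 per tumour group). The male tumours had 6.47, 37.1, 8.30 and 3.46 TPM with luc and 25.3, 48.6, 6.26 and 20.9 with lucOS. F7, the partner of tissue factor, was 172 ± 20.1 TPM in healthy livers (SD, n = 6), 2.06 ± 1.16 in luc and 2.04 ± 1.89 in lucOS (SD, n = 6 per tumour group). Values in male tumours were 2.96, 15.4, 3.84 and 2.15 TPM with luc and 9.28, 19.7, 1.65 and 6.01 with lucOS. Within each tumour group the highest tumour exceeded the lowest many-fold, while the healthy livers differed little.

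Among the other plasma clotting factors and cofactors 7 of 9 fell and 2 rose. The contact system fell throughout, with Klkb1 (plasma prekallikrein) at -5.78, F12 at -4.88, F11 at -4.70 and Kng1 (kininogen) at -4.78 on the log2 scale. Kng1 lay from 1308 to 1604 TPM with a median of 1537 in healthy livers, from 7.14 to 205 TPM with a median of 50.1 in luc and from 6.73 to 118 TPM with a median of 21.9 in lucOS tumours. Male tumours held 55.0, 419, 61.0 and 11.3 TPM under luc and 178, 426, 28.1 and 72.9 under lucOS. No tumour reached a healthy liver, and reads may be shared between Kng1 and its neighbour Kng2. F5, the cofactor of factor X, fell by 4.60. F8, the cofactor of factor IX, which in the liver is made by endothelium, fell by 1.17 from a low level, 3.44 ± 2.13 TPM in healthy livers (SD, n = 6), with overlapping groups. Its means were 0.621 TPM in luc, 0.658 in lucOS, 0.876 in luc male and 1.08 in lucOS male tumours.

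The subunits of factor XIII, which crosslinks fibrin, moved in opposite directions. F13b, the carrier subunit made by hepatocytes, fell by 5.33. F13a1, the catalytic subunit made by macrophages and megakaryocytes, lay from 0.0111 to 0.0705 TPM with a median of 0.0454 in healthy livers, from 2.06 to 7.65 TPM with a median of 2.97 in luc and from 0.926 to 3.70 TPM with a median of 1.47 in lucOS tumours. Males with luc held 4.62, 11.5, 3.54 and 5.66 TPM and those with lucOS 5.43, 1.94, 1.49 and 4.60, so every tumour lay above every healthy liver (log2 fold change 2.02 ± 0.23 SE, limma adjusted p = 1.48e-08). Vwf, the platelet-binding carrier of factor VIII made by endothelium and megakaryocytes, lay from 0.639 to 2.35 TPM with a median of 1.40 in healthy livers, from 3.39 to 7.90 TPM with a median of 4.63 in luc and from 1.92 to 7.28 TPM with a median of 4.03 in lucOS tumours. Male tumours held 7.82, 9.18, 6.77 and 5.91 TPM under luc and 8.27, 7.45, 7.36 and 11.7 under lucOS. Vwf rose by 1.54 on the log2 scale (limma adjusted p = 1.66e-07), and lucOS replicates 2 and 4 overlapped with healthy livers.
Of 9 tested macrophage markers 3 rose and 3 fell, with summed levels of 263 to 449 TPM in healthy livers and 207 to 321, 185 to 426, 257 to 963 and 372 to 938 in luc, lucOS, luc male and lucOS male tumours. Of 4 tested megakaryocyte and platelet markers 2 rose, with sums of 5.00 to 6.06 TPM in healthy livers and 11.2 to 37.2, 8.29 to 15.7, 15.8 to 29.0 and 14.98 to 22.4 in the same tumour groups. Of 12 endothelial markers 5 rose and 3 fell, with sums of 135 to 280.4 TPM in healthy livers and 147 to 291, 123 to 248, 260.3 to 456 and 229.8 to 407 in the tumours. The shares of tested markers that rose were 33.3% (macrophage), 50% (megakaryocyte and platelet) and 41.7% (endothelial), where 71.8% of all genes tested rose. The part of these cell types in the levels of F13a1 and Vwf was not tested.

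Fibrinogen, the precursor of the clot, is assembled from an alpha, a beta and a gamma chain whose genes stand side by side on chromosome 3. All 3 chains fell, by 4.24 (Fga), 4.36 (Fgb) and 4.43 (Fgg) on the log2 scale, with limma adjusted p of 1.79e-06, 7.13e-07 and 8.88e-07. Fgb, the most abundant of the 49 genes in healthy liver, lay from 4148 to 5608 TPM with a median of 4605 in healthy livers, from 57.4 to 830.3 TPM with a median of 230.3 in luc and from 25.9 to 608 TPM with a median of 90.5 in lucOS tumours. The luc males had 215, 1568, 282 and 54.4 TPM and the lucOS males 947, 1769, 129 and 343. No tumour reached a healthy liver, and the tumours spanned a 68.4-fold range. Fgg was 3823 ± 502 TPM in healthy livers (SD, n = 6), 232 ± 238 in luc and 135 ± 186 in lucOS (SD, n = 6 per tumour group). The male tumours had 168, 1169, 226 and 44.4 TPM with luc and 845, 1403, 94.2 and 247 with lucOS. Fga was 2127 ± 321 TPM in healthy livers (SD, n = 6), 139.5 ± 141 in luc and 82.2 ± 116 in lucOS (SD, n = 6 per tumour group). Values in male tumours were 113, 754, 151 and 28.3 TPM with luc and 588, 916, 64.3 and 167 with lucOS. The proportions of the chains moved little, with Fgb over Fga at 2.12 to 2.38 in healthy livers and 1.61 to 3.07 in tumours, and Fgg over Fga at 1.74 to 1.94 and 1.44 to 1.82. Fgg over Fga was 1.48 to 1.57 in luc males and 1.44 to 1.53 in lucOS males, below every healthy liver.

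The promoters of the fibrinogen genes are shown because these chains moved together. The sequences are RefSeq's for GRCm38.p6, from 250 bases before to 50 after a start site of the gene, on the gene's own strand. RefSeq promoters were matched for 37 of the 49 genes, with 43 promoters in all. Capitals mark matches on either strand to GTTAAT (part of the site of the hepatocyte factor HNF1), TTGCNNAA (C/EBP) and TGANTCA (AP-1), which did not overlap each other in the promoters shown.
Fga (chr3:83025903-83026202, plus strand): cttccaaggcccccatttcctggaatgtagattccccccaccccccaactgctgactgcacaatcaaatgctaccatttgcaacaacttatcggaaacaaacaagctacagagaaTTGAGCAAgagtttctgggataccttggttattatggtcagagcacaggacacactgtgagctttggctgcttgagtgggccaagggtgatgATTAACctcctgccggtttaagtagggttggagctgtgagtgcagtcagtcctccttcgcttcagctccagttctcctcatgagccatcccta
Fgb (chr3:83049814-83050113, minus strand): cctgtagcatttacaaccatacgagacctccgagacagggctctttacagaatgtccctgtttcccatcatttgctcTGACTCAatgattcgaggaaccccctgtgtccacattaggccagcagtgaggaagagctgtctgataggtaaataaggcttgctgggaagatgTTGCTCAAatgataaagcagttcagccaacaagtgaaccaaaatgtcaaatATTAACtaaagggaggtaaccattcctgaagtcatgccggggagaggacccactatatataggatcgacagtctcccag
Fgg (chr3:83007474-83007773, plus strand): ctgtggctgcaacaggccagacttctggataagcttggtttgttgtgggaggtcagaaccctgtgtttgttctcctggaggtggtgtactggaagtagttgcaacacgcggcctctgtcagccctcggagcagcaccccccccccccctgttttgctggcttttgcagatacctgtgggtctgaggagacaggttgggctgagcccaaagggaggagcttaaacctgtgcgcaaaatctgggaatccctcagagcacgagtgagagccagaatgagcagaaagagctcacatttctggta
Fga and Fgb hold a GTTAAT and a C/EBP match, Fgb also an AP-1 match, and none of these letters is in the Fgg window. Over the 43 promoters, GTTAAT was in 14 (32.6%), against 7.10% of all 32851 promoters of that length. TTGCNNAA was in 10 (23.3%), against 10.8%, and TGANTCA in 6 (13.95%), against 7.81%. All 13 genes with a GTTAAT match were among those that fell, where 31 of the 37 genes with a promoter fell. A match of letters is a description and not a site.

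The starter of coagulation and its inhibitors split. F3, tissue factor, the receptor that starts clotting with factor VII, lay from 1.69 to 6.52 TPM with a median of 2.72 in healthy livers, from 3.98 to 12.3 TPM with a median of 10.2 in luc and from 1.98 to 9.93 TPM with a median of 7.60 in lucOS tumours. Males with luc held 7.13, 15.04, 4.99 and 16.8 TPM and those with lucOS 8.47, 7.62, 8.69 and 21.7. Healthy livers and tumours overlapped, and F3 rose by 1.24 ± 0.29 on the log2 scale (SE, limma adjusted p = 0.000382), which other scalings did not keep. Tfpi, its inhibitor, lay from 1.61 to 4.01 TPM with a median of 2.58 in healthy livers, from 3.32 to 8.17 TPM with a median of 5.73 in luc and from 5.30 to 8.40 TPM with a median of 6.15 in lucOS tumours. Values in males were 8.80, 4.77, 7.88 and 7.26 TPM for luc and 5.82, 4.68, 4.72 and 5.68 for lucOS. It was higher by 0.99 (limma adjusted p = 1.88e-06), close to the shift of the median gene, and turned below 0 under both other scalings. Tfpi2, a related inhibitor of plasmin and factor VII, fell by 3.92, from 41.2 to 58.4 TPM in healthy livers to 0.478 to 6.49 in tumours.

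The plasminogen system spanned log2 fold changes from -5.57 (Plg) to 4.00 (Plat). Plg, plasminogen, the liver-made zymogen of the clot-dissolving protease plasmin, lay from 1669.8 to 1984 TPM with a median of 1856 in healthy livers, from 3.71 to 101 TPM with a median of 29.8 in luc and from 5.99 to 90.1 TPM with a median of 17.5 in lucOS tumours. The luc males had 33.0, 198, 45.9 and 11.9 TPM and the lucOS males 165, 309, 22.3 and 71.2. No tumour overlapped with healthy liver, and the log2 fold change was -5.57 ± 0.59 (SE, limma adjusted p = 3.38e-09). Its activators and their receptor rose, with every tumour above every healthy liver. Plat, tissue plasminogen activator, lay from 0.190 to 0.304 TPM with a median of 0.231 in healthy livers, from 5.93 to 29.2 TPM with a median of 9.92 in luc and from 7.36 to 22.2 TPM with a median of 13.5 in lucOS tumours. Males with luc held 95.4, 29.9, 172 and 11.02 TPM and those with lucOS 17.8, 13.1, 15.04 and 25.2 (log2 fold change 4.00 ± 0.36 SE, limma adjusted p = 1.43e-10). Plau, urokinase, which activates plasminogen at the cell surface, lay from 0.514 to 1.22 TPM with a median of 0.864 in healthy livers, from 5.87 to 14.9 TPM with a median of 9.37 in luc and from 6.77 to 16.0 TPM with a median of 11.8 in lucOS tumours. Male tumours held 6.47, 9.32, 6.50 and 7.13 TPM under luc and 20.8, 9.53, 12.9 and 22.4 under lucOS (log2 fold change 2.62 ± 0.18 SE, limma adjusted p = 1.24e-12). Plaur, the urokinase receptor, lay from 0.340 to 0.898 TPM with a median of 0.577 in healthy livers, from 7.96 to 16.7 TPM with a median of 10.0 in luc and from 7.74 to 14.2 TPM with a median of 10.6 in lucOS tumours. The luc males had 10.8, 24.5, 15.7 and 21.9 TPM and the lucOS males 15.5, 10.7, 12.5 and 19.5 (log2 fold change 3.15 ± 0.16 SE, limma adjusted p = 1.69e-15). On a log2(TPM + 1) scale these changes are understated, since the healthy values lie near or below 1 TPM.

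The promoters of F3 and Plaur are shown as the genes that rose and held an AP-1 match, with the same motifs in capitals. The Plaur start site used in the promoter table lies 1546 bases inside the start of its gene record, while those of the other promoters shown coincide with it.
F3 (chr3:121723287-121723586, plus strand): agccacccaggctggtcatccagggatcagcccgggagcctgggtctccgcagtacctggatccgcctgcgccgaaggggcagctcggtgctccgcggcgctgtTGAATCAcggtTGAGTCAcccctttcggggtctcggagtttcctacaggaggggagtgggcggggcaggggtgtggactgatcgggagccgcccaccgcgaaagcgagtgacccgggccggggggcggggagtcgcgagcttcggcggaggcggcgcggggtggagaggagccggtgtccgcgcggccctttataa
Plaur (chr7:24462233-24462532, plus strand): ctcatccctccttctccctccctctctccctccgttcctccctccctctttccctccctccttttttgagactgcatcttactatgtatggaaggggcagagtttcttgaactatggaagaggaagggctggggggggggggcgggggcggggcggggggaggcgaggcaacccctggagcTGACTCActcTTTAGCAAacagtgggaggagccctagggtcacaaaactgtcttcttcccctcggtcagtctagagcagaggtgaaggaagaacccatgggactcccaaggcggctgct
F3 holds 2 AP-1 matches and Plaur holds an AP-1 and a C/EBP match. AP-1 letters were also in 4 genes that fell (C8g, F2, Fgb and Tfpi2).

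The protein C system, which shuts thrombin generation down, was listed together with protein Z. In this list 3 genes fell and 1 did not pass. Proc (protein C) and Proz (protein Z, a cofactor for the inhibition of factor X) fell by 5.30 and 5.32 with no overlap. Proz was 294 ± 46.1 TPM in healthy livers (SD, n = 6), 4.65 ± 3.82 in luc and 3.97 ± 3.52 in lucOS (SD, n = 6 per tumour group). The male tumours had 6.62, 32.5, 7.04 and 2.56 TPM with luc and 24.3, 41.4, 3.38 and 12.7 with lucOS. Pros1, protein S, the cofactor of protein C made by liver, endothelium and other cells, lay from 38.6 to 54.0 TPM with a median of 43.9 in healthy livers, from 14.9 to 29.6 TPM with a median of 21.3 in luc and from 10.8 to 26.7 TPM with a median of 14.1 in lucOS tumours. For males the values were 28.5, 53.3, 38.4 and 21.3 TPM (luc) and 36.2, 51.3, 20.2 and 55.4 (lucOS). Its fall of 0.79 (limma adjusted p = 0.000935) was small, with overlapping groups, and did not pass against the PM5 healthy livers alone. Thbd, thrombomodulin, the endothelial receptor that turns thrombin towards protein C, lay from 0.981 to 6.17 TPM with a median of 2.42 in healthy livers, from 0.847 to 8.41 TPM with a median of 1.66 in luc and from 1.42 to 2.52 TPM with a median of 2.15 in lucOS tumours. Males with luc held 6.18, 6.99, 7.51 and 6.83 TPM and those with lucOS 9.53, 9.99, 4.06 and 7.74. Its difference was 0.51 ± 0.27 (SE, 95% interval -0.04 to 1.06, limma adjusted p = 0.0764) and changed sign with the scaling and with the healthy series used. With quantile normalization Thbd passed as lower (-0.75, limma adjusted p = 0.00789). It passed as higher under 5 other settings, at most by 1.10 against the PM5 livers alone (limma adjusted p = 0.00277).

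Several pairs of partner genes stood in other proportions in tumours than in healthy liver, out of 11 ratios looked at, and by more than the fibrinogen chains. C1s1 over C1ra was 1.93 to 2.10 in healthy livers and 5.14 to 31.0 in tumours, without overlap. Plau over Plg was 0.000277 to 0.000659 in healthy livers and 0.0308 to 3.83 in tumours. Pros1 over Proc was 0.0607 to 0.0955 in healthy livers against 0.711 to 11.3 in tumours. F3 over F7 was 0.0101 to 0.0389 in healthy livers against 0.386 to 17.3 in tumours. The chains of C8, which leave the cell as one complex, parted as well. C8b over C8a was 0.893 to 1.18 in healthy livers and 0.118 to 0.484 in tumours. C8g over C8a was 1.72 to 2.61 in healthy livers, a median of 0.730 in tumours and 0.221 to 6.71 over all of them, overlapping with healthy livers. These ratios are descriptions within libraries and were not tested. They are shown for 6 pairs by group.

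**Figure D3:**
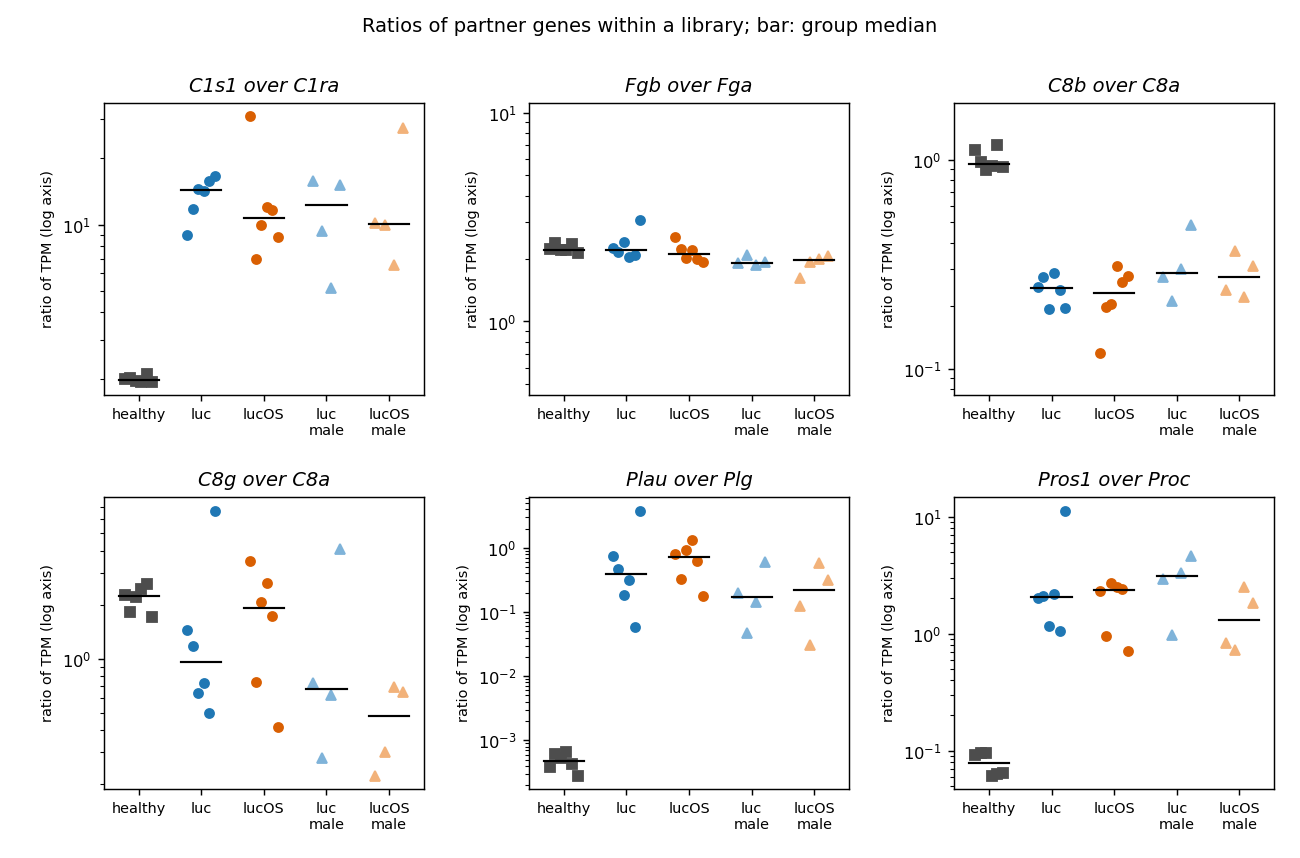
Ratio of TPM of 6 pairs of partner genes within each library, on log axes, by group, with each point a library and each bar the group's median. Fgb over Fga has a median of 2.21 in healthy livers and overlaps with the tumours, while C1s1 over C1ra, Plau over Plg and Pros1 over Proc lie higher and C8b over C8a lower in every tumour than in any healthy liver.

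The tumours differed widely among themselves in many of the genes that had fallen and less in several others. Between the lowest and the highest of the 20 tumours, Fgb spanned 68.4-fold, C3 67.0-fold and F2 53.8-fold, where healthy livers spanned 1.35-fold, 1.68-fold and 1.16-fold. C8g spanned only 4.10-fold among tumours, although it had fallen by 5.84 on the log2 scale, and Masp2 2.93-fold. The genes that had risen spanned 2.65-fold (Tfpi) to 28.9-fold (Plat). Luc male replicate 2 and lucOS male replicates 1 and 2 held the highest sums of the 49 genes (8798, 5164 and 8363 TPM). These 3 tumours also had the highest mean level of hepatocyte markers, at 8.49, 8.01 and 8.52 on the log2 scale, against 3.49 to 7.80 in the others.

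Over the 12 tumours without a sex label, 27 of the 48 genes followed the hepatocyte marker level. For each gene the correlation of log2(TPM + 1) with the mean log2(TPM + 1) of 14 hepatocyte markers, none of them among the 49 genes, was computed, as it was for all genes tested among tumours other than the markers. The points share library and scaling. In 22 of the 48 genes r exceeded 0.9, where 1.24% of all 15438 genes had such an r. At a permutation p under 0.05, Benjamini-Hochberg adjusted over all 15438 genes, 27 of the 48 passed with positive r and none with negative r, where 1.98% and 0.0259% of all genes did. Kng1 (r = 0.987, rho = 0.979), Plg (r = 0.987, rho = 0.993), C3 (r = 0.984, rho = 0.972) and F2 (r = 0.983, rho = 0.986) led, each with a two-sided permutation p of 1e-05 for r, the smallest that 100000 resamples can give, and an adjusted p of 0.00119. For rho the permutation p was 1e-05 in Kng1, Plg and F2 and 2e-05 in C3. With the 2 tumours farthest from the median marker level left out, r stayed above 0.9 in 21 of the 22 genes and was 0.888 in F5. Within the 7 tumours numbered AL54, r was at least 0.944 in these 22 genes, and the AL51 tumours were only 5. Fgb had r = 0.946, rho = 0.965 (permutation p = 1e-05 for both) with a slope of 1.14 log2 units per unit of marker level.

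Another 21 genes did not pass. They include the 7 genes that had risen, from Plat (r = 0.185) to Vwf (r = -0.260), and 12 genes that had fallen between healthy liver and tumours (C1ra, C2, C4b, C8g, C9, Cfp, Masp2, Pros1, Tfpi2, Cd55, Cd59a and F8). C1s1 (r = 0.0407) and Thbd (r = 0.308) were the others. C9 lay next to the threshold (r = 0.829, adjusted permutation p = 0.0501), while C8g (r = 0.684) had a slope of 0.19 and moved little across the tumours. A p that misses the threshold does not show that a gene is unrelated to the marker level.

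**Figure D4:**
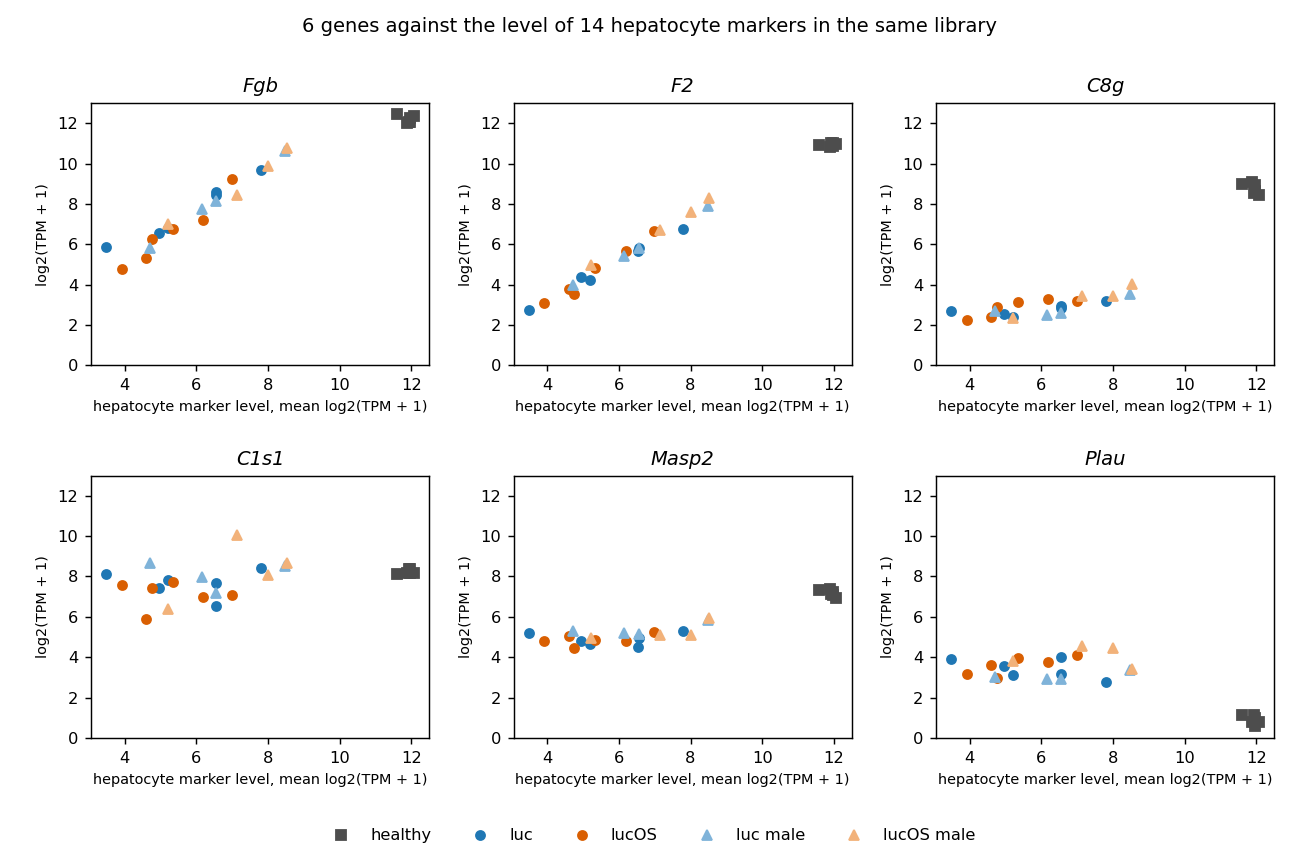
Level of 6 genes, log2(TPM + 1), against the mean level of 14 hepatocyte markers, mean log2(TPM + 1), in each of the 26 libraries by group. Fgb and F2 climb with the marker level across tumours up to the 6 healthy livers at the right, C8g and Masp2 stay nearly level among tumours, C1s1 lies below all healthy livers in 14 of 20 tumours and above them in 5, and Plau is higher in tumours than in healthy liver.

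The 6 healthy livers themselves fell into animal series, 3 numbered AL15 and 3 numbered PM5. In 22 of the 48 genes tested the series did not overlap, against 44.5% of all genes tested, so these genes parted about as often as others. F8 was 5.56, 6.29 and 3.87 TPM in AL15 and 1.34, 1.83 and 1.76 in PM5 livers. Thbd was 6.17, 4.15 and 2.91 TPM in AL15 and 0.981, 1.12 and 1.92 in PM5 livers, and Masp1 90.2, 92.9 and 97.4 and 40.1, 38.5 and 52.0. C6 and C9 went the other way, with C6 at 15.9, 19.1 and 16.7 TPM in AL15 and 25.04, 39.7 and 45.0 in PM5 livers. Against AL15 livers alone 38 genes were lower and 7 higher in tumours, and against PM5 livers alone 37 and 8.

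The antigen construct was compared with luc, which carries no T cell antigens. Where titles give no sex, none of the 48 genes passed by limma with adjusted p, nor did any at an unadjusted p under 0.05. Over all 15453 genes tested the share called was 0%, with 385 at an unadjusted p under 0.05. The lowest p was that of F13a1, which lay from 0.926 to 3.70 TPM with a median of 1.47 in lucOS and from 2.06 to 7.65 TPM with a median of 2.97 in luc tumours, a difference of -0.68 ± 0.33 (SE, 95% interval -1.37 to 0.00, limma adjusted p = 0.997). Fgb differed by -1.08, with an interval of -2.94 to 0.78, and C3 by -0.71, with an interval of -2.30 to 0.88, so differences of several fold in either gene lie within these intervals. Within the AL51 tumours and within the AL54 tumours, no gene of the 48 passed either.

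In male tumours the antigen comparison called none of the 48 genes by limma, where 0.349% of all 15453 genes were called. At an unadjusted p under 0.05, which chance alone gives in about 1 in 20 genes, there were 2 of the 48. Plau was 20.8, 9.53, 12.9 and 22.4 TPM in lucOS males and 6.47, 9.32, 6.50 and 7.13 in luc males. The difference was 1.00 ± 0.30 (SE, limma adjusted p = 0.127). Plat leaned the other way, -1.45 ± 0.61 (SE, 95% interval -2.73 to -0.17, limma adjusted p = 0.228), with luc males 1 and 3 far above the rest. Without luc male replicate 4, 1 gene, Plat, was called lower (-2.13 ± 0.52 SE, limma adjusted p = 0.0319). The difference between the antigen effects in male and other tumours was itself tested, and limma called none of the 48 genes, against 0% of all genes, with 1 (Plau, 0.84) at an unadjusted p under 0.05.

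Male tumours were compared with tumours that give no sex. In luc tumours 3 of the 48 genes were higher in males and none lower, where 8.94% of all 15453 genes were higher. Thbd was 6.18, 6.99, 7.51 and 6.83 TPM in luc males and from 0.847 to 8.41 TPM with a median of 1.66 in luc tumours, where luc replicate 4 alone lay above the males (log2 fold change 1.40 ± 0.34 SE, limma adjusted p = 0.00865). Plat was 95.4, 29.9, 172 and 11.02 TPM in luc males and from 5.93 to 29.2 TPM with a median of 9.92 in luc tumours (2.05 ± 0.56 SE, limma adjusted p = 0.0174). It lost its call without luc male replicate 1 (1.73) or replicate 3 (1.45) and with only these groups in the fit. Cd55 (1.37 ± 0.44 SE, limma adjusted p = 0.0411) rested on luc male replicate 2, at 16.3 TPM, without which the difference was 0.72, and it lost its call without luc replicate 1, 2, 3, 4 or 6 or luc male replicate 3 as well. Without luc male replicate 3, 1 of the 48 genes was called.

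In lucOS tumours 13 of the 48 genes were higher in males and none lower, where 15.2% of all genes were higher. They were complement genes (C1ra, C4b, Masp1, C3, C6, C8b and the inhibitor Cd59a) and genes of coagulation and its control (F7, F10, Pros1, Proz, Thbd and Vwf). Thbd was 9.53, 9.99, 4.06 and 7.74 TPM in lucOS males and 1.42 to 2.52 in lucOS tumours, without overlap (1.49 ± 0.34 SE, limma adjusted p = 0.00456). Vwf was 8.27, 7.45, 7.36 and 11.7 TPM in lucOS males and 1.92 to 7.28 in lucOS tumours, also without overlap (0.93 ± 0.29 SE, limma adjusted p = 0.026). Such a lack of overlap was common, with all lucOS males above all lucOS tumours in 1376 of all 15453 genes and in 2 of the 48. C3 had the largest difference, 2.69 ± 0.85 (SE, limma adjusted p = 0.0287), with groups that overlapped because lucOS male replicate 3 lay below lucOS replicate 6. The log2 fold changes of the other 10 ran from 0.84 (Cd59a) to 2.20 (F10), with overlapping groups. The fibrinogen chains had differences of 2.45 to 2.61 and did not pass.

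**Figure D5:**
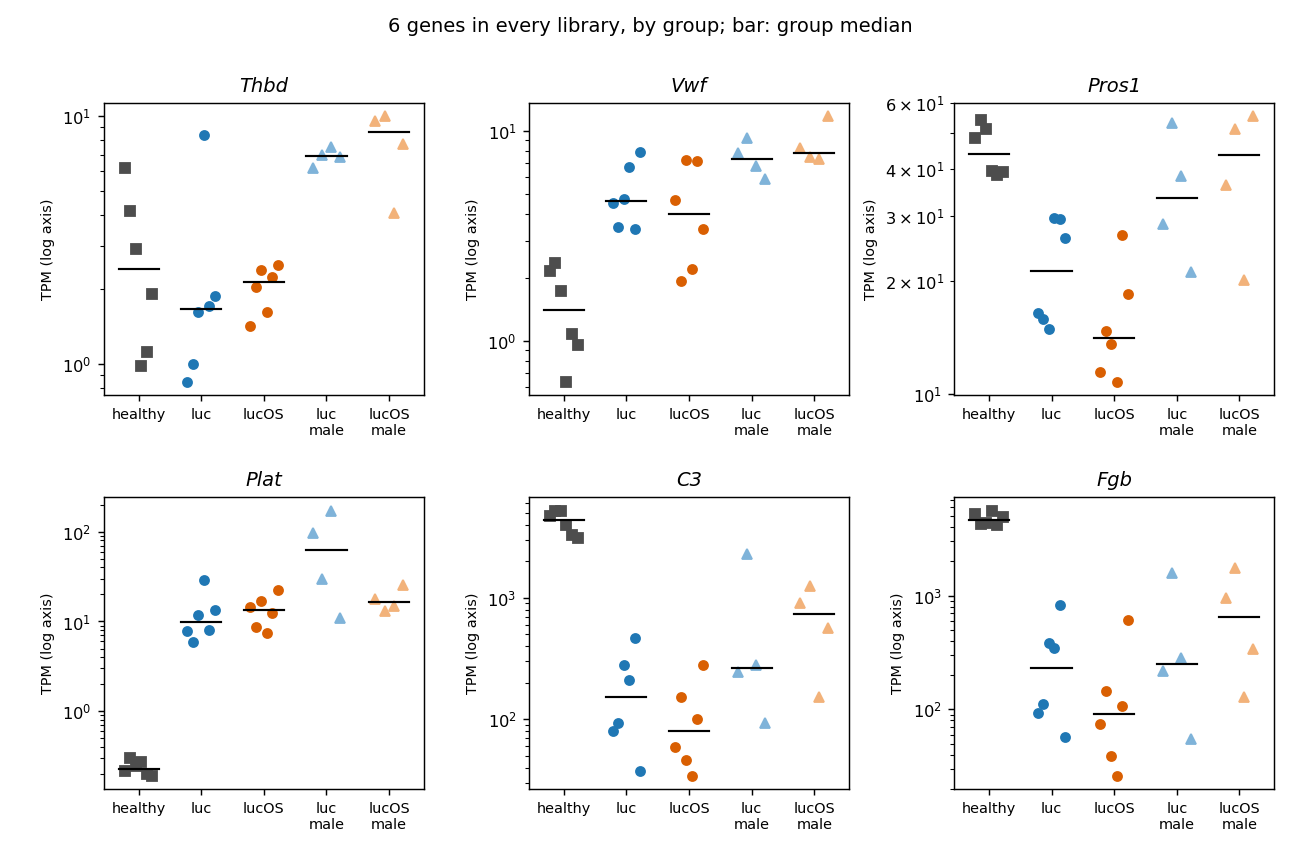
TPM of 6 genes in every library by group, on log axes, with each point a library and each bar the group's median. Thbd and Vwf lie higher in lucOS males than in any lucOS tumour, Plat is above 10 TPM in all luc males and highest in replicates 1 and 3, and C3 and Fgb overlap between the tumour groups.

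The count of 13 rested on single libraries. It was 4 without lucOS male replicate 1, 3 without replicate 2, 38 without replicate 3 and 2 without replicate 4. It was 5 without lucOS replicate 1, 3 or 4, and 27 without lucOS replicate 6. Thbd kept its call under all 19 alternatives run for this comparison, and Pros1 under all but the fit with the hepatocyte marker level as a covariate. With that covariate C3 (0.79) and Thbd (1.19) were called. Of 14 hepatocyte markers 2 were higher in lucOS males, with a median difference of 2.00, and of 12 endothelial markers 7 were, as were 4 of 9 macrophage markers. In luc males 0 of 14 hepatocyte, 3 of 12 endothelial and 0 of 9 macrophage markers were higher. Among all genes tested, 15.2% were higher in lucOS males and 8.94% in luc males. B cell markers were higher in both male groups, 4 of 4 in each, with sums of 12.2 to 30.4 TPM in lucOS males against 0.531 to 2.39 in lucOS, and 10.6 to 20.4 in luc males against 0.592 to 1.46 in luc. Of 4 tested lung epithelium markers all 4 were higher in lucOS males, with sums of 15.9 to 52.5 TPM against 0.0812 to 1.64 in lucOS tumours, where Scgb1a1 was listed at 0 in every library. They were also higher in luc males (11.8 to 31.0 TPM against 0.380 to 1.28). The part of the endothelial, macrophage, B cell and lung markers in these results was not tested.

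The remaining genes of both cascades also moved in both directions between healthy liver and tumours, where 16.9% of all genes tested fell and 71.8% rose. Of 21 tested complement genes that were not members, 12 fell and 8 rose, with a median of -0.48. Among the largest changes were falls of Serping1 (the C1 inhibitor, -4.11), Vtn (vitronectin, -3.75) and Colec10 (a liver collectin, -3.06). Of 24 tested coagulation and fibrinolysis genes that were not members, 13 fell and 9 rose, with a median of -0.97. Among the largest changes were falls of the thrombin inhibitors Serpind1 (-6.06) and Serpinc1 (-5.81) and of the protease Hgfac (-5.91).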

How the data were processed

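RNA was extracted with Trizol, treated with DNase I, cleaned on RNeasy columns and made into TruSeq libraries, per the labels' protocols. The authors deposited 1 table of normalized TPM values. TopHat2, featureCounts and the build mm10 are named in the submitters' processing notes, without versions or roles, and how TPM was computed is not given in the sources used here. The TPM summed to between 999996.2 and 1000256.3 per library. TPM keeps no depth, so intervals rest on the spread between libraries. Of 24063 rows, 27 whose names had turned into dates and 2 with a shared name were left out. Columns were matched to samples by title.

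Values were tested as log2(TPM + 1) with limma 3.58.1 (trend, robust) in R 4.3.3, on genes that reached 1 TPM in 4 or more of the fitted libraries, two-sided, with Benjamini-Hochberg adjustment over all genes and calls at an adjusted p under 0.05. Tumours were set against healthy liver in a fit of 26 libraries, and the 5 comparisons among tumours came from a fit of 20. Correlations and tables used Python 3.11.15 with scipy 1.17.1, pandas 2.3.3 and numpy 2.4.6. The fits were tested on simulated data. Replicate numbers follow the order of the samples and pair nothing.

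The list of genes, the marker lists and the tests were chosen with earlier results of these data known. Values in every group are given for genes that passed in a comparison among tumours, that rose in tumours, or that were among the 8 most abundant in healthy liver, and other genes are given by range and count within their role. Of genes outside the list, up to 4 with the largest change among those called are named, and some of these are not reported here. Motifs and promoters to show were chosen after the values were seen. Alternatives covered the pseudocount, the filter, scaling, the samples in the fit, each library left out, and, chosen after seeing the data, the hepatocyte marker level as a covariate and single animal series in the antigen comparison. The single-cell samples were not analysed here.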

Additional observations from a re-analysis of the deposited data

Results flagged for a closer look

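In 236 sets of values, each a gene in a group of 4 or 6 libraries, 38 (16.1%) held a library whose gap to its nearest neighbour was a large part of the whole range of the group. A chance rate of about 1 in 20 such sets holds for normally distributed values. The gaps were taken on TPM without a log scale, where a few high values stretch the range. The share of 16.1% can therefore not be read as an excess over that rate. The genes are also not independent of each other.

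Most of these values came from 2 tumours. Luc male replicate 2 was the highest of the 4 luc males in 44 of the 49 genes and stood apart in this way in 23. Its complement values in TPM were C2 (32.42), C3 (2282), C4bp (118.2), C6 (16.52), C8g (10.45), Cfb (414.2), Masp1 (35.33), Mbl1 (17.7), Mbl2 (6.486), Cd55 (16.35) and Cd59a (10.49). Its coagulation values in TPM were F5 (33.61), F7 (15.43), F10 (37.12), F12 (97.54), F13b (15.43), Fga (754.3), Fgb (1568), Fgg (1169), Klkb1 (6.721), Kng1 (419.1), Proc (55.17) and Proz (32.45). Its mean hepatocyte marker level was the highest of the luc males, at 8.49 on the log2 scale. This tumour was also high in some acute phase genes, plasma proteins the liver makes in inflammation. Saa1 was at 989 TPM and Lcn2 at 1774, where healthy livers had at most 284 and 143. Orm1 (1215 TPM) and Saa4 (20.2 TPM) stayed below every healthy liver. LucOS male replicate 2, at a marker level of 8.52, had 132 TPM of Saa1 and 183 of Lcn2. LucOS replicate 6 was the highest of the 6 lucOS tumours in 36 of the 49 genes and stood apart in 9, with TPM of C2 (13.66), C6 (3.293), F7 (5.824), F10 (15.95), F11 (4.207), Fga (314.3), Fgb (607.9), Fgg (507.1) and Kng1 (118.2). Its hepatocyte marker level was 6.99, also the highest of its group. The parts of hepatocyte content and of inflammation in these values were not tested.

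Luc replicate 4 stood apart in 3 genes. Plat was at 29.24 TPM, where the other luc tumours had 5.93 to 13.4. Thbd was at 8.41 TPM against 0.847 to 1.88, and Cfd at 6.55 TPM against at most 0.280. Masp2 was at 60.97 TPM in lucOS male replicate 2, against 30.2 to 33.6 in the other lucOS males. F3 was at 21.7 TPM in lucOS male replicate 4, against 7.62 to 8.69 in the others. Mbl2 was at 1183 TPM in healthy liver replicate 4, against 720.3 to 888 in the other healthy livers.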

How the results depend on the processing

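Of the 46 genes that changed between healthy liver and tumours, 41 kept direction and call under every alternative that tested them. There were 38 such alternatives, and 37 for F8. The exceptions among the 46 genes were F3, Tfpi, Vwf, Cfp and Pros1. With quantile normalization 4 genes were higher. F3 turned to -0.057 with quantile normalization. Tfpi turned to -0.35 with quantile normalization and -0.032 with median ratio scaling. Thbd, which had not passed, turned to -0.75 with quantile normalization, -0.46 with median ratio scaling, -0.21 in tumours without a sex label, -0.53 in AL51 tumours and -0.086 against AL15 livers. It passed as higher under 5 alternatives, with log2 fold changes of 0.57 to 1.10. Leaving out 1 library at a time gave 7 to 8 higher and 39 to 39 lower genes. The same gave 0 to 1 lower in the male antigen comparison, 1 to 3 higher in luc males and 2 to 38 higher in lucOS males. In a fit of just the groups compared, 1 gene was higher in luc males and 7 in lucOS males. The lucOS male count was 8 with all genes above 0 TPM, 7 with quantile normalization, 8 with median ratio scaling and 2 with the hepatocyte marker level as a covariate. Except where an alternative tested other genes or fewer samples, the cause was not tested. No paired analysis was possible because replicate numbers only follow the order of the samples. Depth is unknown, so no level near 0 could be given a counting limit.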

Other observations

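Acute phase genes, the plasma proteins the liver makes in inflammation and their signal chain, were set beside the complement and coagulation genes. Of 16 tested, 11 fell in tumours, 3 rose and 2 did not pass, and the median was -3.22 on the log2 scale. Over all genes tested, 16.9% fell and 71.8% rose. The largest falls were Saa4 (a lipoprotein-bound serum amyloid, -7.01), Crp (a pentraxin, -5.02), Itih4 (a plasma protein, -4.78) and Orm1 (orosomucoid, -4.68). Saa4 was at 217 to 858 TPM in healthy livers and at 0.237 to 5.99 in luc tumours. In lucOS males 2 of 16 were higher than in lucOS tumours, where 15.2% of all genes were. In luc males 1 of 16 was higher, where 8.94% of all genes were.

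Of 17 transcription factors that act in hepatocytes, 14 fell, none rose and 3 did not pass, with a median of -2.75. Over all genes tested, 16.9% fell and 71.8% rose. The largest falls were those of the nuclear receptors Hnf4a (-4.88), Nr1h4 (the bile acid receptor, -4.45) and Nr0b2 (-4.20), and the forkhead factor Foxa3 (-4.00). Hnf4a was 388 ± 104 TPM in healthy livers (SD, n = 6) and 1.93 to 33.2 in luc tumours. In lucOS males 5 of 17 were higher than in lucOS tumours, where 15.2% of all genes were. In luc males 2 of 17 were higher, where 8.94% of all genes were.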
